A study of Nasonia vitripennis with 79 samples.

Results

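The 200 genes described here are those with the most RNA in the abdomens of haploid males relative to 2 other body samples of the wasp Nasonia vitripennis. They were taken from the 13792 genes that carry only a LOC identifier, among 14621 genes in the table. For each gene the mean of log2(CPM + 1), with CPM for a gene's counts per 1000000 counts of its library, was taken over the 5 abdomens of haploid F15 males. The higher of the means in the heads of those males and in the abdomens of diploid F14 females was subtracted, and the 200 largest differences were kept. The values that chose the genes are therefore those 3 groups, and all statements on them are descriptions without a test.

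The series holds 79 RNA-seq libraries of poly(A) RNA, 5 in each of 15 groups and 4 in one, from wasps of the WOM strain 1 day after emergence. The line is a polyploid line obtained by knocking down a gene of the sex determination pathway, which is not analysed here, and every group belongs to it; an untreated line was not analysed here. The groups are heads (MH) and abdomens (MA) of haploid (1N) and diploid (2N) males of generations F3 and F15, and heads (FH) and abdomens (FA) of diploid and triploid (3N) females of generations F2 and F14. The 4 male abdomen groups, with 5 libraries each, are the centre of the account. The labels do not say how many animals went into a library or whether libraries of different groups share a rearing batch, so p-values measure the spread between these libraries, which may in part be technical.

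In Hymenoptera such as Nasonia, unfertilised eggs normally develop into haploid males and fertilised eggs into diploid females. Diploid males arise when the female pathway is not switched on in an egg with both chromosome sets, and diploid Nasonia males are known to be fertile and to father triploid daughters. A male insect abdomen holds testes with developing sperm, seminal vesicles and accessory glands next to gut, fat body, muscle and nerve tissue. Genes with RNA almost confined to male abdomens are therefore commonly sought among those of sperm and seminal fluid, but a level in a whole abdomen does not name a tissue. The sources used here give no protein name or role for any of the 200 identifiers, so the genes are described by identifier, RNA class, level, position among neighbours and pattern. In a bulk library, fewer cells of a type and less RNA per cell cannot be told apart.

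Library totals, in units of 1000000 counts, ran from 12.6 to 94.98, and those of the 20 male abdomens from 17.9 to 42.7. The labelled tissues were checked against named genes. Lop1, the long-wavelength opsin of the eye, was at 1.28 CPM or less in 15 male abdomens of 3 groups and averaged between 2195 and 8349.9 CPM in the head groups. In the diploid F15 male abdomens it was at 12.2, 0.35, 3.38, 292 and 0.361 CPM in libraries D116 to D120, so D119 stood far above the others. The abdomens labelled diploid F2 female averaged 2587 CPM of Lop1 (range 1808 to 4269) and only 10.8 CPM of oskar, a germ plasm gene of the ovary, against 661 CPM in the diploid F14 female abdomens. That group goes against its tissue label and was left out of the comparisons.

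Among the 200 genes the difference used for the choice ran from 11.4 on the log2 scale for LOC100117783 to 3.54 for LOC100114999 at rank 200. The 3 genes just inside were LOC100679189, LOC100116441 and LOC100114999, with differences of 3.548, 3.543 and 3.536. The 3 just outside were LOC100121462, LOC116417036 and LOC100122085, with 3.531, 3.524 and 3.523, so the boundary does not mark a gap. LOC116417036, for example, stood at 13.4 CPM in haploid F15 male abdomens and at 0.154 and 0.0967 CPM in the 2 reference groups. The diploid female abdomen was the higher reference for 140 of the genes and the male head for 60. Both references were under 1 CPM for 76 genes. For 54 genes the mean of every head and female abdomen group was under 1 CPM, the group that goes against its label left out.

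The RefSeq gene table of assembly Nvit_psr_1.1 matched all 200 identifiers. It classes 190 as protein coding, 8 as long non-coding RNA (lncRNA), 1 as a transcribed pseudogene (LOC100116762) and 1, LOC107981028, as a miscellaneous RNA. Over all genes, 92.4% are protein coding and 6.89% are lncRNA. Judged by the ratio of counts to length-corrected values in the 10 F3 male abdomens, the median effective length of the genes was 0.686 to 0.705 of the median over all genes. Counts that were not whole numbers, which RSEM produces when reads are shared between similar transcripts or genes, occurred in male abdomens for 50 of the 200 genes (25%) and for 3796 of all 14621 genes (26%). Levels of those 50 genes are uncertain to the extent that reads were divided among copies.

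Together the 200 genes took 10.6% ± 1.35 (SD, n = 5) of all counts in haploid F15 male abdomens, the group they were chosen in. In the male abdomen groups that played no role in the choice, they took 7.94% ± 2.31 in diploid F15, 7.97% ± 2.08 in haploid F3 and 6.19% ± 0.80 in diploid F3 males (SD, n = 5 each). In no library from a head or a female abdomen did the share pass 0.83%. Averaged over the 200 genes, log2(CPM + 1) was 7.15 ± 0.08 in haploid F15, 6.83 ± 0.45 in diploid F15, 7.06 ± 0.39 in haploid F3 and 6.26 ± 0.42 in diploid F3 males. The lowest libraries of the other 3 groups were at 6.44 (D10, haploid F3), 6.10 (D119, diploid F15) and 5.74 (D19, diploid F3). D119 is also the library with 292 CPM of Lop1, and the part of head RNA in its level was not tested. Among female abdomens the mean was highest, and most scattered, in triploid F14 females, from 1.09 to 3.05, and lowest in triploid F2 females, at 0.45 ± 0.05.

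**Figure D1:**
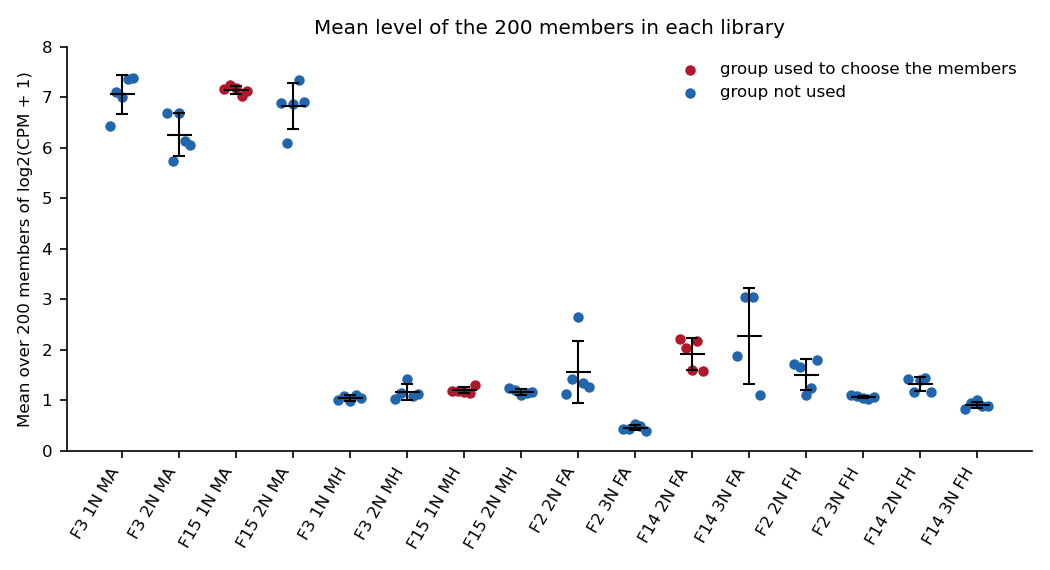
Mean of log2(CPM + 1) over the 200 genes in each of the 79 libraries (points), by group on the horizontal axis, with the group mean and SD (bars); red marks the 3 groups that chose the genes. The 20 male abdomens lie between 5.74 and 7.39, and all head and female abdomen libraries lie at 3.05 or below.

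The genes chosen most strongly were near absent outside male abdomens and abundant within them. LOC100117783, first in the order, stood at 2221, 5445, 4645, 2463 and 2170.4 CPM in the 5 haploid F15 male abdomens, listed here as throughout in the order of library number. In the groups not used for the choice it stood at 1291, 2665, 3369, 3409 and 942 CPM in haploid F3, 1990.2, 1190.4, 1659.6, 1287 and 1067 CPM in diploid F3 and 2630.1, 2452, 2040.3, 1939.8 and 2241 CPM in diploid F15 males. Its highest value in any head or female abdomen, the group that goes against its label left out, was under 2 CPM. The haploid F3 libraries D6 and D10 lay within the range of the diploid F3 libraries or below it, while the other 3 lay above all 5.

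LOC100679870 and LOC100119680, next in the order, lie next to each other in the gene order and had nearly the same levels. LOC100119680 stood at 1001, 1584, 2464, 3177 and 633 CPM in haploid F3, 2137, 1650.4, 1539, 1690.3 and 1521 CPM in diploid F3 and 1518, 1798, 1495, 2647 and 1239 CPM in diploid F15 males. The means of both genes in these 3 groups lay between 1693 and 1822 CPM, and the ranges of the groups overlap. LOC100119680 had divided counts in 18 of the 20 male abdomens, LOC100679870 in 0. The log2 fold change of LOC100119680 between diploid and haploid F3 males was -0.10 (SE 0.34, edgeR adjusted p = 0.88), and that of LOC100679870 was 0.06 (SE 0.32, adjusted p = 0.92).

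The other genes of the first 10 were LOC100678938, LOC103316012, LOC100123094, LOC107981134, LOC100122658, LOC100114362 and LOC103316219. LOC100678938 averaged 905 ± 374 CPM in haploid F3, 1249 ± 375 CPM in diploid F3 and 1294 ± 309 CPM in diploid F15 males (SD, n = 5), and its neighbour LOC107981134 averaged 776 ± 482, 503 ± 82.3 and 512 ± 250.2 CPM. LOC103316012 and LOC100122658 averaged 849 ± 189 and 238 ± 66.1 CPM in diploid F3 males. Unlike these, LOC100114362 ranged from 1.11 CPM in a diploid F3 library to 918 CPM in a haploid F15 library.

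Per transcript length the order was another. In TPM, the share of transcripts per 1000000 after correction for length, the 10 highest genes in haploid F15 male abdomens were led by LOC107981028, LOC100123346, LOC100118781 and LOC100422735, with means of 9343, 8457, 8373 and 8152 TPM. LOC100680250, LOC100679177, LOC100119490, LOC100120478, LOC100123094 and LOC100678938 followed, between 2857 and 4663 TPM. LOC100422735 and LOC100680250 reached these values from means of only 58.2 and 35.2 CPM, so their high TPM rests on a short effective length. In diploid F3 males LOC100422735 was the highest of the 10, at 7858 TPM.

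By counts in haploid F15 males, LOC100118781 was the most abundant of the 10. It stood at 15184, 11884, 18237, 24928 and 19269.6 CPM in haploid F15 males and at 12573, 22031, 10094, 4418 and 4491 CPM in diploid F15 males. In F3 it stood at 11147, 10280.2, 3169, 4507 and 3142 CPM in haploids and at 699.9, 1085, 4394, 769 and 6484 CPM in diploids. Its highest value in a head or female abdomen was 301 CPM. The diploid F3 libraries fall apart, with 3 low (D16, D17 and D19) and 2 within the haploid range (D18 and D20), and the same 3 libraries were the lowest of their group for LOC107981028, LOC100123346, LOC100119490 and LOC100120478. The log2 fold change of LOC100118781 between diploid and haploid F3 males was -1.35 (SE 0.63, edgeR adjusted p = 0.15).

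**Figure D2:**
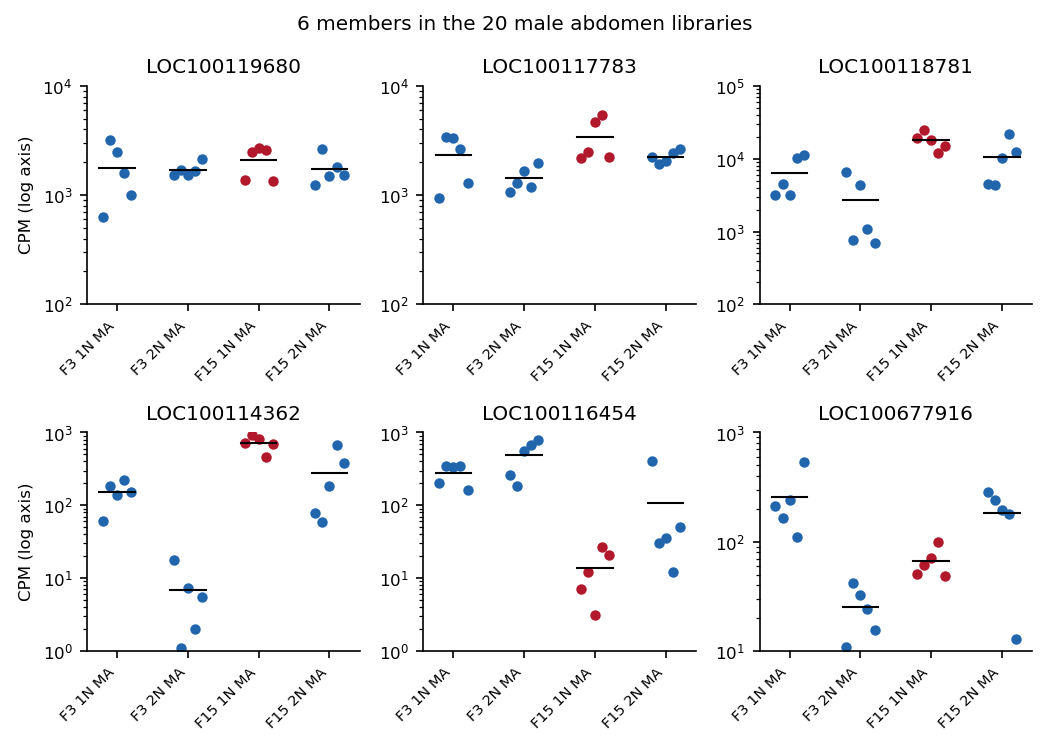
CPM of 6 of the genes in the 20 male abdomen libraries (points, log axes), with the group mean as a line; red marks the haploid F15 group, which took part in the choice. LOC100119680 and LOC100117783 vary least of the 6, LOC100114362 is low in all 5 diploid F3 libraries and LOC100118781 in 3 of them (D16, D17 and D19), LOC100116454 is low in all haploid F15 and most diploid F15 males, and LOC100677916 is low in diploid F3 males and in 1 diploid F15 library (D116).

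Whether the RNA of these genes is higher in male abdomens also in libraries that did not choose them was tested in 5 comparisons, with edgeR's quasi-likelihood test over all genes and a Benjamini-Hochberg adjusted p under 0.05. Against male heads of the same ploidy and generation, 200 of 200 genes were higher in haploid F3 abdomens, where 35% of all genes tested were called higher. In diploid F3 abdomens 196 were higher (background 32.5%), and in diploid F15 abdomens 200 were higher (background 36%). Diploid F15 male abdomens had higher levels of 195 of the genes than the 4 triploid F14 female abdomens (background 33.5%). Diploid F3 male abdomens had higher levels of 199 than triploid F2 female abdomens (background 48.8%), a comparison in which the median log2 fold change of all genes was 0.466. Of all genes tested, 31.8%, 33.7% and 31.3% were called lower than in heads in haploid F3, diploid F3 and diploid F15 males, 36.1% lower than in triploid F14 and 39% lower than in triploid F2 female abdomens. In each of the 5 comparisons, 0 of the 200 genes were called lower by edgeR, by DESeq2 or by limma on log2(TPM + 1), and since 0 of the edgeR fold changes were negative, 0 were lower at an unadjusted p under 0.05. These counts say how far the choice carries over to libraries that had no part in it. Groups that chose the genes were also in the fits, where they shared in the filter, the scaling and the estimate of spread.

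Set by libraries rather than means, every one of the 20 male abdomens lay above every head and every female abdomen of the groups kept for 53.0% of the 200 genes. The same held for 438 of all 14621 genes (3%), of which the former make up 24.2%; 5 of the male abdomens and 10 of the others took part in the choice. The lowest mean of a male abdomen group exceeded the highest mean of any other group kept for 197 genes, and by more than 1 on the log2 scale for 172. The groups that chose the genes are among these means, so the choice partly sets both counts. The share over all genes was not computed for them.

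The genes that were not called are few. They were low or scattered in diploid F3 male heads or abdomens, in diploid F15 male abdomens or in triploid F14 females. All are named because they are exceptions, after their values were seen. LOC100123697 missed the threshold in 3 comparisons. It ranged over 15.3 to 34.3 CPM in haploid F15 males, but stood at 0.901, 1.904, 2.33, 0.05202 and 2.86 CPM in diploid F3 males, where their heads averaged 1.37 ± 0.774 CPM (SD, n = 5; edgeR adjusted p = 0.7). LOC100680086 averaged 7.19 ± 8.61 CPM in diploid F3 abdomens against 2.27 ± 4.96 CPM in heads (edgeR adjusted p = 0.062). Its head libraries ranged from 0 to 11.1 CPM. LOC100124149 averaged 16.7 ± 11.8 against 10.6 ± 6.103 CPM (edgeR adjusted p = 0.11). For LOC100122003 the head mean of 18.9 ± 40.7 CPM rests on a library at 91.7 CPM, and all 5 abdomens lay between 21.99 and 45.2 CPM (adjusted p = 0.52). Against triploid F14 females the genes not called were LOC100123697, LOC100680086, LOC100124285, LOC107981971 and LOC116418379, with female ranges as wide as 3.87 to 175 CPM for LOC100124285. The diploid F15 males were scattered as well, over 7.24 to 458 CPM for LOC100124285 and 1.97 to 23.9 CPM for LOC100123697.

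Of the genes named for the smallest gap between male abdomens and the rest, LOC100677900 and LOC100120197 show another form. LOC100677900 stood at 163 to 339.9 CPM in haploid F3 and 116.2 to 432 CPM in diploid F15 males, and at 29.2, 28.99, 106.9, 9.99 and 13.6 CPM in diploid F3 males. LOC100120197 stood at 91.4 to 117.7 CPM in diploid F3 males and at 187 to 513 CPM in haploid F3 males. In both genes every diploid F3 library lay below every haploid F3 library. LOC100679189, at 61.7 to 182 CPM in diploid F3 males, was higher in haploid F3 (227 to 369 CPM) than in haploid F15 males (6.31 to 90.2 CPM).

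Diploid and haploid males of F3 were compared next, as neither group took part in the choice. The choice used haploid males, so a difference from diploids that haploid F3 and F15 males share would favour lower values in diploids here. That part was not tested. Where the genes changed, they were mostly lower in diploids. By edgeR, 62 of 200 were lower (background 8.54% of 11358 genes tested) and 6 were higher (background 8.03%). The members' median log2 fold change was -0.776 (quartiles -1.58 and 0.087) against 0.034 for all genes tested, and 142 of 200 fold changes were negative. Of the 62 genes lower in diploids, 55 differed by more than 2-fold. The share of all genes called at that size was not computed. Leaving out each library in turn gave between 43 (without D17) and 76 (without D20) genes called lower, and the members' median stayed between -0.961 and -0.695.

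LOC100114362 had the largest fall. It stood at 154, 223, 139, 181 and 61.7 CPM in the 5 haploid F3 males and at 5.496, 2.01, 7.35, 1.11 and 17.9 CPM in the 5 diploid F3 males, with no overlap. The log2 fold change was -4.56 (SE 0.76, edgeR adjusted p = 0.0009). Its counts were divided among copies in all 20 male abdomens, so its level may include reads of a similar sequence.

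LOC100679726, LOC103317900, LOC100678679 and LOC100677916 were the other largest falls among genes whose libraries did not overlap. LOC100677916 stood at 541, 111.3, 240.1, 164 and 214 CPM in haploid and at 15.4, 24.1, 32.7, 41.8 and 10.8 CPM in diploid F3 males, a log2 fold change of -3.43 (SE 0.60, edgeR adjusted p = 0.0012). LOC100679726 stood at 73.1 to 424 CPM in haploid F3 and 4.59 to 15.5 CPM in diploid F3 males, a log2 fold change of -4.05 (SE 0.64, adjusted p = 0.00065). LOC103317900 stood at 7.54 to 114.4 CPM in haploid F3 and 1.17 to 4.65 CPM in diploid F3 males (log2 fold change -3.83, SE 0.72, adjusted p = 0.0018), and LOC100678679 stood at 7.42 to 37.4 CPM in haploid F3 and 0.104 to 2.72 CPM in diploid F3 males (log2 fold change -3.78, SE 0.64, adjusted p = 0.00095). In the haploid group, library D6 was by far the highest for LOC100677916, LOC100679726 and LOC103317900. LOC100677916 and LOC100679726 had divided counts in all 20 male abdomens.

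Few of the genes rose: the 6 called higher are 3% of the 200, below the background of 8.03%. Of these 6, 3 had no overlap between the libraries, a property whose share over all genes was not computed. LOC100119896 stood at 91.6, 41.4, 56.7, 115.3 and 91.6 CPM in haploid F3 and at 399, 229.98, 232, 154 and 321 CPM in diploid F3 males, where every library lay above every haploid one, and its log2 fold change was 1.67 (SE 0.34, edgeR adjusted p = 0.0031). LOC100120880 stood at 41.7 to 106.1 CPM in haploid F3 and 138 to 233 CPM in diploid F3 males, a log2 fold change of 1.04 (SE 0.29, adjusted p = 0.019), which was lost without diploid library D16 (adjusted p = 0.055). LOC100116884 stood at 1198 to 1672 CPM in haploid F3 and 1840.1 to 3816 CPM in diploid F3 males, a log2 fold change of 0.77 (SE 0.24, adjusted p = 0.035). That call was lost without D8, D9, D10, D17 or D19 (adjusted p from 0.065 to 0.13). All 3 genes had divided counts in 19 or 20 of the male abdomens.

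**Figure D3:**
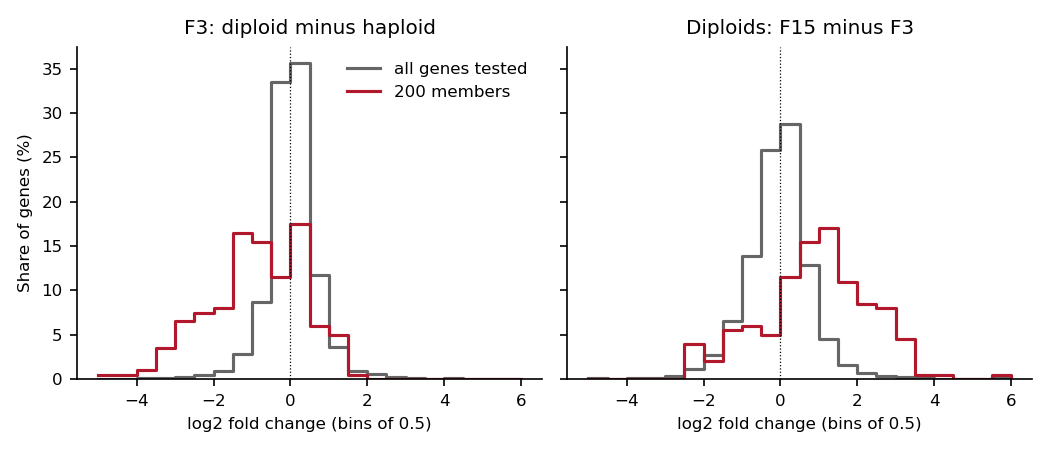
Share of genes (vertical axis, %) by log2 fold change in bins of 0.5 (horizontal axis), for all 11358 genes tested (grey) and the 200 genes (red), in diploid minus haploid F3 male abdomens (left) and in F15 minus F3 diploid male abdomens (right). The 200 genes are shifted to the left, with a median of -0.776, in the first and to the right, with a median of 1.02, in the second; both comparisons use the diploid F3 libraries.

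Diploid males of F15 and F3 were then compared. Most genes that changed were higher at F15: 94 of 200 were called higher (background 19.8%) and 20 lower (background 15.6%). The median log2 fold change of the 200 genes was 1.02 (quartiles 0.201 and 1.82), against -0.0125 for all genes tested, and 155 of 200 were positive. Of those called, 82 were more than 2-fold higher and 19 more than 2-fold lower, again without a share computed over all genes. The diploid F3 libraries enter both this comparison and the last one, so a low value there gives a fall in the first and a rise in the second. The choice used F15 males, so a difference from F3 that haploid and diploid F15 males share would favour a rise here. That part was not tested. Leaving out each library gave 67 genes (without D117) to 53.5% of the 200 (without D119, the library with Lop1) called higher, and 15 (without D118) to 27 (without D120) called lower. On log2(TPM + 1) with limma the medians were 0.765 for the 200 genes and -0.192 for all genes. When the 2 groups were fitted alone, 8 genes were called lower instead of 20.

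LOC100114362 again showed the widest difference. It stood at 378, 676, 183, 58.1 and 78.7 CPM in diploid F15 males, all above the highest diploid F3 library at 17.9 CPM, and its log2 fold change was 5.65 (SE 0.80, edgeR adjusted p = 6.1e-05). Within F15 the diploid libraries differ among themselves widely for this gene, with D117 near the haploid F15 libraries (455 to 918 CPM) and D119 and D120 far below them.

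The next largest rises among genes without overlap were those of LOC100678679, LOC100122390, LOC100122183 and LOC100678065. LOC100122183 stood at 22.2, 18.2, 48.9, 28.04 and 49.97 CPM in diploid F3 and at 229.6, 413, 309.8, 72.1 and 143 CPM in diploid F15 males, a log2 fold change of 3.07 (SE 0.56, edgeR adjusted p = 0.00049). LOC100122390 stood at 0.318 to 2.13 CPM in diploid F3 and 5.33 to 19.2 CPM in diploid F15 males (log2 fold change 3.24, SE 0.43, adjusted p = 3.8e-05) and LOC100678679 stood at 0.104 to 2.72 CPM in diploid F3 and 4.27 to 25.3 CPM in diploid F15 males (log2 fold change 3.26, SE 0.63, adjusted p = 0.00078). LOC100678065 stood at 8.11 to 16.4 CPM in diploid F3 and 16.9 to 115.9 CPM in diploid F15 males (log2 fold change 3.06, SE 0.53, adjusted p = 0.00035), with library D116 only just above the highest diploid F3 library.

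Among genes lower at F15 whose libraries did not overlap, the largest falls were those of LOC103317701 and LOC100678102. The largest fall of the 20 genes called lower was that of LOC103317397 (log2 fold change -2.29, SE 0.70, edgeR adjusted p = 0.017), whose libraries overlapped, and which did not pass when the 2 groups were fitted alone (adjusted p = 0.065). LOC103317701 stood at 507, 542, 410.1, 242 and 257 CPM in diploid F3 males and at 66.7, 32.5, 35.8, 39.4 and 204 CPM in diploid F15 males, a log2 fold change of -2.18 (SE 0.45, edgeR adjusted p = 0.0013). LOC100678102 stood at 313 to 676 CPM in diploid F3 and 38.3 to 307 CPM in diploid F15 males (log2 fold change -2.02, SE 0.47, adjusted p = 0.0029). In both genes library D120 was the highest of the diploid F15 group and came close to the F3 range. LOC116738578, a lncRNA, stood at 75.5 to 245 CPM in diploid F3 and 38.6 to 60.2 CPM in diploid F15 males (log2 fold change -1.35, SE 0.40, adjusted p = 0.014), a call that was lost without D16 (adjusted p = 0.05). LOC100115863 stood at 200.1 to 303 CPM in diploid F3 and 45.7 to 129.3 CPM in diploid F15 males (log2 fold change -1.33, SE 0.30, adjusted p = 0.0025), and LOC100119896, which rose in diploids of F3, stood at 154 to 399 CPM in diploid F3 and 46.5 to 153 CPM in diploid F15 males (log2 fold change -1.25, SE 0.34, adjusted p = 0.0077).

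The remaining comparisons among male abdomens involve the haploid F15 group that chose the genes, and are given without a test. In diploid against haploid F15 males the median log2 fold change was -0.466 (quartiles -0.792 and 0.00597), with 52 genes above and 148 below 0. In haploid males of F15 against F3 it was 0.537 (quartiles -0.115 and 1.11), with 139 above and 61 below. A choice by high level in haploid F15 males favours a negative value in the first and a positive one in the second. Haploid F15 was the highest of the 4 male abdomen groups for 122 genes, diploid F3 for 38, haploid F3 for 30 and diploid F15 for 10, while diploid F3 was the lowest for 129.

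The 200 genes did not vary as one block. Hierarchical clustering of their centred log2(CPM + 1) over the 20 male abdomens was divided into 3 patterns, a number set after the values were seen, and the patterns are described without a test. Pattern A holds 98 genes that were on average lowest in diploid F3 males. Over its genes, the mean log2(CPM + 1) of a library was 4.08 to 6.21 in diploid F3, 5.47 to 7.13 in haploid F3, 5.04 to 7.64 in diploid F15 and 6.96 to 7.75 in haploid F15 males. LOC100114362, LOC100118781, LOC107981028 and LOC100122183 belong to it. Pattern B holds 76 genes whose mean was nearly even over the libraries, at 6.78 to 7.21, 7.13 to 7.58, 7.21 to 7.66 and 7.39 to 7.86 in the same order of groups. Its genes were not alike. LOC100117783, LOC100679870, LOC100119680 and LOC100678938 belong to it, and so do LOC100679726, LOC103317900, LOC100677916 and LOC100678065, whose log2 fold changes between diploid and haploid F3 males were -4.05, -3.83, -3.43 and -3.10. By edgeR, 22 of the 76 were called lower (background 8.54%) and 5 higher (background 8.03%) in diploid than in haploid F3 males. In diploid F15 against diploid F3 males, 32 were called higher (background 19.8%) and 4 lower (background 15.6%). The 5 and the 4 did not exceed the background share. The same 20 libraries formed the patterns, so the clustering partly sets all counts of calls by pattern. They are given as a description only. Pattern C holds 26 genes that ran the other way, with 8.14 to 9.39 in diploid F3, 7.83 to 9.10 in haploid F3, 5.33 to 8.84 in diploid F15 and only 4.04 to 5.27 in haploid F15 males. Beside the same backgrounds, 40 genes of pattern A were called lower and 0 higher in diploid than in haploid F3 males. In diploid F15 against diploid F3 males, 62 of pattern A were higher and 0 lower. For pattern C, 0 were lower and 1 higher in the F3 comparison, and 0 higher and 16 lower in the other.

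Levels outside male abdomens are given for the patterns as a description, since the choice limits them. The diploid female abdomen was the higher reference for 81 of the 98 genes of pattern A. In pattern C, 21 of 26 genes were under 1 CPM in every head and female abdomen group kept, against 10 of 98 in pattern A and 23 of 76 in pattern B. A gene that was low in haploid F15 male abdomens could enter the 200 only with still lower references, so the choice largely sets this difference. The genes of pattern C entered the 200 although their median level was lowest in the group that chose them. Median levels of pattern C were 8.67 on the log2 scale in diploid F3 and 4.45 in haploid F15 males.

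LOC100116454, LOC116738588 and LOC103317397 of pattern C had, with LOC100114362 and LOC100121890 of pattern A, the largest spread between male abdomen groups. LOC100116454 stood at 779, 682, 558, 187 and 263 CPM in diploid F3 and 162, 349.5, 332, 352 and 205 CPM in haploid F3 males. At F15 it stood at 20.5, 26.8, 3.14, 12.02 and 7.16 CPM in haploids and 50.3, 12.3, 35.97, 29.9 and 407 CPM in diploids, where D120 alone was in the range of F3. The log2 fold change of LOC100116454 between diploids of F15 and F3 was -2.05 (SE 0.75, edgeR adjusted p = 0.04), and the call was lost without several single libraries and when the 2 groups were fitted alone (adjusted p = 0.11). LOC116738588 and LOC103317397 had the same library D120 as the highest of diploid F15, at 610.1 and 411 CPM. LOC100121890 stood at 82.4, 186, 14.9, 5.99 and 7.62 CPM in diploid F15 males, where D117 and D116 were high, and at 1.48 to 13.6 CPM in diploid F3 males.

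Within the diploid F15 males, patterns A and C varied in opposite directions from library to library at the ends. In D117, pattern A averaged 7.64 and pattern C 5.33 on the log2(CPM + 1) scale. In D120, pattern A averaged 5.90 and pattern C 8.84. D116 (6.81 and 6.44) and D118 (6.504 and 6.47) lay between, and D119 was low in pattern A (5.04) with pattern C at 6.52. D117 thus stood next to haploid F15 males and D120 next to F3 males in pattern C. Without D117, 67 rather than 94 of the 200 genes were called higher in diploid F15 than in diploid F3 males.

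**Figure D4:**
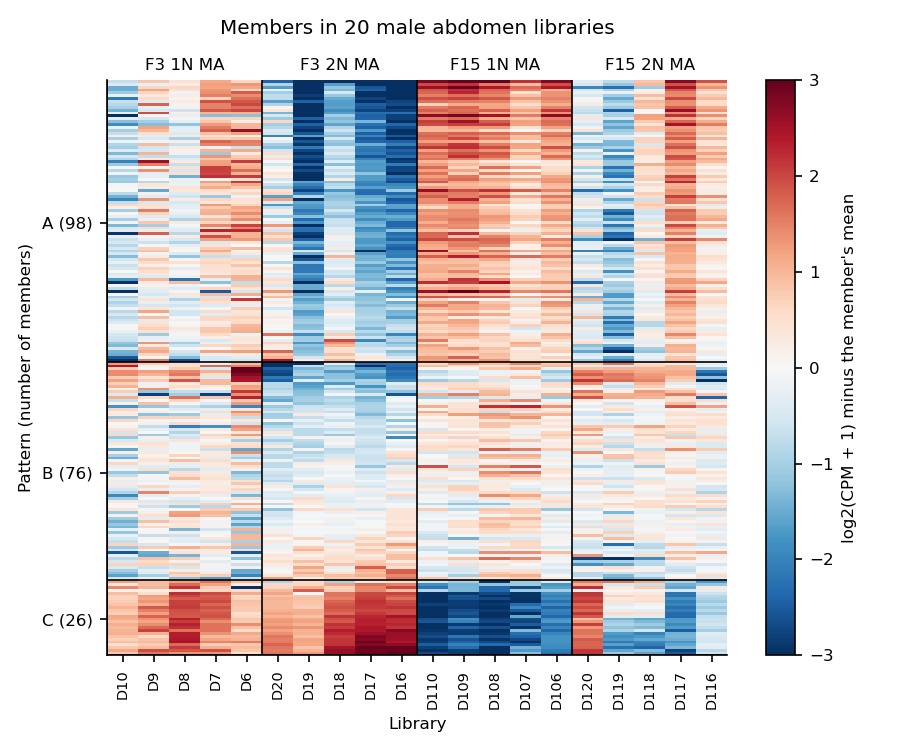
The 200 genes (rows, grouped by pattern) in the 20 male abdomen libraries (columns, by group), coloured by log2(CPM + 1) minus the gene's mean over these libraries. Pattern A is low in diploid F3 libraries D16, D17 and D19, pattern B is nearly even in its mean but holds genes that are low in diploid F3, and pattern C is high in F3 and in D120 and low in haploid F15.

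**Figure D5:**
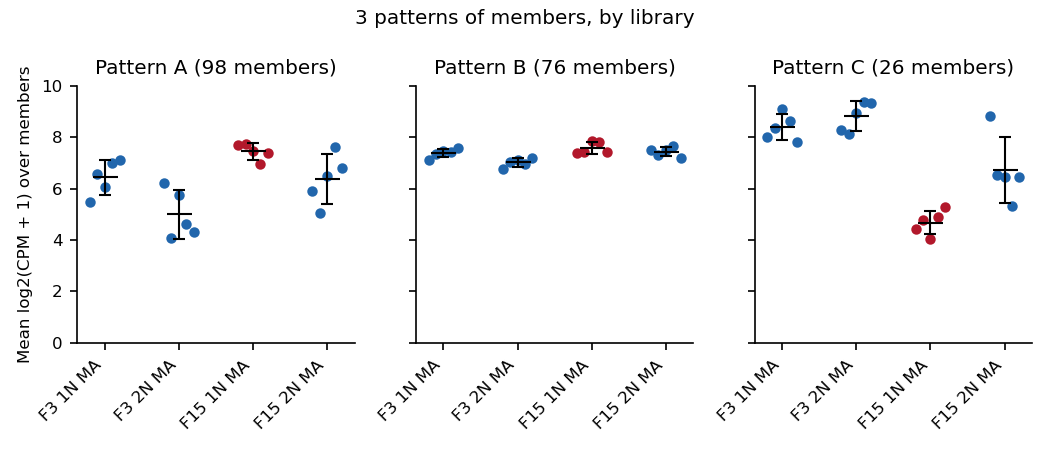
Mean log2(CPM + 1) over the genes of each pattern in each male abdomen library (points), with group mean and SD (bars); red marks the haploid F15 group used in the choice. The mean of pattern B stays between 6.78 and 7.86, while that of pattern C falls to between 4.04 and 5.27 in haploid F15 males and spreads from 5.33 to 8.84 in diploid F15 males.

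A small set within pattern B varied together. The 5 genes most correlated with LOC100677916 over the 20 male abdomens were LOC100679726, LOC100679256, LOC100678065, LOC100678540 and LOC103317900, which are not neighbours in the gene order; they were picked after their values were seen. All 6 were low in diploid F3 males, high in haploid F3 library D6 and low in diploid F15 library D116. LOC100679256 stood at 179 CPM in D6 against 56.7 to 122 CPM in the other haploid F3 males, and at 2.88 CPM in D116 against 56.1 to 148 CPM in the other diploid F15 males. LOC100678540 stood at 245 CPM in D6 (others 72.1 to 157 CPM) and at 8.48 CPM in D116 (others 68.5 to 183 CPM). Haploid F15 males lay at 14.7 to 28.1 CPM for the first and at 22.5 to 40.3 CPM for the second. LOC100117783, first in the order, did not share these values, at 1291 CPM in D6 and 2630.1 CPM in D116. A high level in D6 was not particular to the 6 genes. Of the haploid F3 libraries, D6 had the highest mean log2(CPM + 1) of pattern A (7.13) and of pattern B (7.58), which holds the 6. Of the diploid F15 libraries, D116 had the lowest mean of pattern B (7.21), but not of pattern A (6.81).

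Members lie next to each other in the gene order of the RefSeq table more often than their share of genes. Of the 200, 41 had another of the 200 as a direct neighbour (20.5%). Of the 399 neighbouring places, 48 were held by one of the 200 (12%), beside a share of 1.39% of the 14359 genes placed. No test was made, since neighbouring gene models can be copies of one gene or parts of one transcript. There were 17 runs of adjacent members, of which 11 held 2 genes, 5 held 3 and 1 held 4.

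The run of 4 is LOC100679935, LOC100119680, LOC100679870 and LOC100679833, with mean levels in diploid F3 males of 61.2, 1708, 1822 and 153 CPM. No head or female abdomen group had a mean above 0.177 CPM for these genes, the group that goes against its label left out. LOC103316012, LOC100678323 and LOC100117783 form a run in which the outer genes are among the first 10 and the middle gene is lower, at 81.02 CPM in diploid F3 males. The neighbours LOC103316219 and LOC100123094 both had higher means in diploid than in haploid F3 males, 459 against 202.6 CPM and 1617 against 764 CPM. Neither difference passed the test (edgeR adjusted p = 0.14 and 0.21), and the haploid libraries were scattered over 59.97 to 393 CPM for the first and 199.98 to 1554 CPM for the second. The lncRNAs LOC100115777, LOC116417781 and LOC116417783 form another run and had lower means in diploid than in haploid F3 males, 118.2 against 476 CPM, 129.9 against 446 CPM and 100.7 against 273 CPM, of which only that of LOC100115777 passed the test (edgeR adjusted p = 0.036; 0.066 and 0.11 for the others). Neighbours need not be alike, as LOC103316810 averaged 701 CPM in diploid F3 and 30.97 CPM in haploid F15 males, and the gene beside it, LOC100680250, 12.3 and 35.2 CPM.

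Genes that carry a name could not enter the 200, so the same difference was computed for the 829 named genes to show what named genes keep this company. It was at or above that of rank 200 for 20 of them. Of these, 13 are serine proteases (SP) or serine protease homologs (SPH), out of 51 such names in the table; serine proteases cut proteins, and homologs have the fold without the full catalytic site. The others are the carboxylesterases CCE-E7 and CCE-A8, the chitinase Cht5, the cytochrome P450 genes CYP6CK6 and CYP6CK7, the odorant receptor Or255 and the glutathione S-transferase GstS2. SPH103 was highest, with 3209 ± 729 CPM in haploid F15, 4181 ± 1253 CPM in diploid F15, 3778 ± 2914 CPM in haploid F3 and 1116 ± 213 CPM in diploid F3 males (SD, n = 5 each). Between diploid and haploid F3 males, 4 of the 20 were lower by edgeR (SPH103, SP72, SP122 and CYP6CK6), beside 8.54% of all genes tested. The other 16 did not pass the test. Between diploids of F15 and F3, 11 were higher, beside 19.8% of all genes tested, and the other 9 did not pass.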

How the data were processed

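RNA-seq was made from poly(A) RNA of heads and abdomens of Nasonia vitripennis, in 79 libraries and 16 groups. The deposited tables hold expected counts per gene and TPM values; STAR 2.7.11a and RSEM 1.3.1 are named in the submitters' processing notes, and the genome build is not given in the sources used here. Of the deposited expected counts, 17.8% were not whole. The authors' TPM values, corrected for transcript length, were used for levels between genes.

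The choice of the 200 genes, the gene lists and the tests were made with earlier results of these data known. Counts were rounded and fitted with edgeR 4.0.16 (R 4.3.3): genes kept by filterByExpr (count floor 10, total floor 15), TMM scaling, robust quasi-likelihood tests, Benjamini-Hochberg adjustment over all genes tested, and calls at an adjusted p under 0.05. Each standard error is the fold change divided by the square root of F. All 200 genes passed the filter in every comparison. The 4 male abdomen groups were fitted together. In 2 further fits they were joined by the male heads, and by the diploid F14, triploid F14 and triploid F2 female abdomens. Groups that chose the genes were therefore in the fits, though not among the groups compared in the tests. Lists of genes by function matched 0 of the 200, because the sources hold no descriptions for them, and no sequences were used. The scripts were tested on simulated counts with 200 changed genes.

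Genes were named by rule: the 10 with the largest difference, the 10 with the highest TPM, those at the boundary, up to 5 rising and 5 falling without overlap in each male abdomen comparison at a mean of at least 5 CPM, and the 5 with the smallest gap and the largest spread. Alternatives were DESeq2 1.42.0, its size factors, limma 3.58.1 on log2(TPM + 1) for genes with a group mean of at least 1 TPM, no filter, fits of 2 groups alone, members chosen with a pseudocount of 0.1 or on TPM, and each library left out.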

Additional observations from a re-analysis of the deposited data

Results flagged for a closer look

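In groups of 4 or 5 libraries, a library was singled out where its gap to the nearest of the others took up an unusually large part of the group's range. That happened in 11 of 128 groups tested, and chance alone singles out about 1 in 20.

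For the mean log2(CPM + 1) over the 200 genes, 3 libraries stood apart, all outside the male abdomens: D101 of the haploid F15 male heads at 1.31 (others 1.15 to 1.18), D13 of the diploid F3 male heads at 1.42 (others 1.03 to 1.13), and D26 of the F2 diploid female abdomens, the group that goes against its label, at 2.65 (others 1.12 to 1.42).

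In diploid F15 male abdomens, library D116 was low for 4 genes that vary together: LOC100679726 at 6.88 CPM (others 75.6 to 99.8), LOC103317900 at 4.56 CPM (others 20.9 to 22.8), LOC100677916 at 12.7 CPM (others 179 to 284) and LOC100678065 at 16.9 CPM (others 74.3 CPM or more). In haploid F3 male abdomens, LOC100679726 was high in D6 at 424 CPM (others 73.1 to 94.3), LOC100121890 was low in D10 at 10.7 CPM (others 49.9 to 74.5), and LOC103317397 was high in D8 at 511 CPM (others 209 to 250). In diploid F3 male abdomens LOC100678938 was high in D16 at 1910 CPM (others 985 to 1180).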

How the results depend on the processing

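Counts of the 200 genes called stayed within 1.5 times the reported count in 232 of 236 recomputed values. The exceptions were these. Choosing the members with a pseudocount of 0.1, which shares 148 of 200 genes, gave 3 rather than 6 genes higher in diploid F3 males and 37 rather than 20 lower in diploid F15 than F3 males. Fitting the 2 groups alone gave 8 lower in diploid F15 than F3 males. Choosing on TPM, which shares 182 genes, gave 1 gene lower in diploid F3 abdomens than heads, where 0 were called. The causes were not tested. Leaving out one library at a time gave 4 to 7 higher and 43 to 76 lower in the F3 comparison, 67 genes to 53.5% of the 200 higher and 15 to 27 lower in the diploid generation comparison, 194 to 197 higher than heads in diploid F3, and 190 (without D90A) to 196 higher than in triploid F14 females. Of 390 recomputed fold changes of named genes, 362 kept their side of the threshold, 27 lost it and 1 passed it, with 0 changes of direction among called values. LOC100121890 lost its call in the F3 comparison without D16, D17 or D19 (adjusted p = 0.051 to 0.052). No paired analysis was possible because the labels give each library a name of its own and no number that groups share.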
